A study of Homo sapiens with 12 samples.

Results

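The genes described here fold, inspect and dispose of proteins in the endoplasmic reticulum (ER), or sense and answer the load of unfolded protein there. They are 38 named genes, taken by symbol from a deposited table of 20307 gene identifiers, and all 38 symbols were found. Of these, 37 reached a TPM of 1 in 2 or more of the 12 libraries and were tested. DERL3, a membrane protein of the degradation pathway that is typical of secretory cells, is listed at 0 in all 12 libraries. TPM, the unit of the table, is a length-corrected share of a library's transcripts, so levels of different genes can be set side by side.

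The study sequenced mRNA from a pair of established human liver cancer lines, Hep3B and Huh7, in 6 groups of 2 libraries named A1 and B1. Hep3B cells were left as controls, treated with 20 µM lenvatinib, treated with 20 µM WWL70, or given both, with WWL70 again at 20 µM and a lenvatinib dose that the labels leave out. Lenvatinib is an inhibitor of growth factor receptor kinases used against liver cancer, and WWL70 is an inhibitor of the lipid hydrolase ABHD6. The Huh7 groups were a control and a line labelled as lenvatinib-resistant. The labels do not say whether that line was 1 clone, how it was selected or whether the drug was present at harvest. Exposure times are likewise not stated, nor is it said that A1 and B1 were separate cultures.

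In the ER, the chaperone BiP (HSPA5) binds unfolded chains and also holds the stress sensors IRE1 (ERN1), ATF6 and PERK in check. When unfolded protein accumulates, IRE1 splices XBP1 mRNA into the code for an active transcription factor, ATF6 is cut to release another, and PERK slows translation and favours ATF4. XBP1 and ATF6 raise the genes for chaperones, disulfide isomerases and the machinery that returns misfolded proteins to the cytosol for destruction, called ER-associated degradation. Hepatocytes secrete large amounts of albumin and other plasma proteins and depend on this system. Gene-level TPM does not separate spliced from unspliced XBP1, and protein cleavage and phosphorylation were not measured.

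Several facts on the libraries bear on every result. The libraries of the control and WWL70 groups differed by a median of 0.114 to 0.134 log2 units over all genes tested, those of the lenvatinib group by 0.242, those of the resistant group by 0.324 and those of the combination by 0.755. In the last 3 groups the difference between A1 and B1 followed transcript length. Across 13573 genes of known length, Spearman's rho of that difference with length was −0.518 for lenvatinib, −0.588 for the combination and −0.585 for the resistant line, against −0.0578 to 0.0982 in the other groups. Over the 37 tested genes described here it was −0.712, −0.714 and −0.778 in those same groups. Set against its own line's control, B1 showed almost no relation with length over all genes (rho 0.0362, 0.00118 and 0.0625), while A1 did (−0.341, −0.523 and −0.297), so short transcripts were high and long ones low in A1. Each of these correlations is across genes that share a library, and is given as a description.

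The hepatocyte markers ALB, APOA2, SERPINA1, TF and HNF4A were well above 0 in all 12 libraries, and AFP was between 10.1 and 84.5 TPM in Hep3B. The 8 markers of that list summed to 32107 and 31942 TPM in the Hep3B controls, 50966 and 49729 with lenvatinib, 28327 and 34473 with WWL70, 71473 and 69040 with the combination, 38282 and 40128 in the Huh7 controls and 56799 and 51213 in the resistant line. Of the markers of other cells, the plasma cell genes JCHAIN, MZB1 and TNFRSF17 were between 0 and 0.301 TPM and the leukocyte genes PTPRC and CD3E between 0 and 0.518. SDC1, the remaining plasma cell marker and also a gene of epithelial cells, was between 113 and 212 TPM in Hep3B, at 181 and 185 TPM in the Huh7 controls and at 101 and 102 TPM in the resistant line. Among the endothelial genes KDR was listed at 0 throughout, and CDH5 and VWF reached at most 1.11 TPM. PECAM1 was between 0.039 and 2.01 TPM in Hep3B, at 11.9 and 11.5 TPM in the Huh7 controls and at 5.08 and 7.44 TPM in the resistant line. LYZ, a lysozyme gene of myeloid cells, was between 4.59 and 59.0 TPM in Hep3B, at 549 and 516 TPM in the Huh7 controls and at 67.8 and 68.1 TPM in the resistant line. CD68, a macrophage marker, was between 37.9 and 124 TPM in Hep3B, at 6.27 and 10.8 TPM in the Huh7 controls and at 32.7 and 27.1 TPM in the resistant line. The 4 fibroblast genes summed to between 5.30 and 14.0 TPM in Hep3B, 16.3 and 15.1 in the Huh7 controls and 29.5 and 36.2 in the resistant line. The part of these markers in the results that follow was not tested. Among the genes described here, 16 overlap another protein-coding gene in GENCODE 29, among them HSP90B1, PDIA5 and PDIA6, and 4 have a named pseudogene copy. Whether counting used strand is not given in the sources used here.

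**Figure D1:**
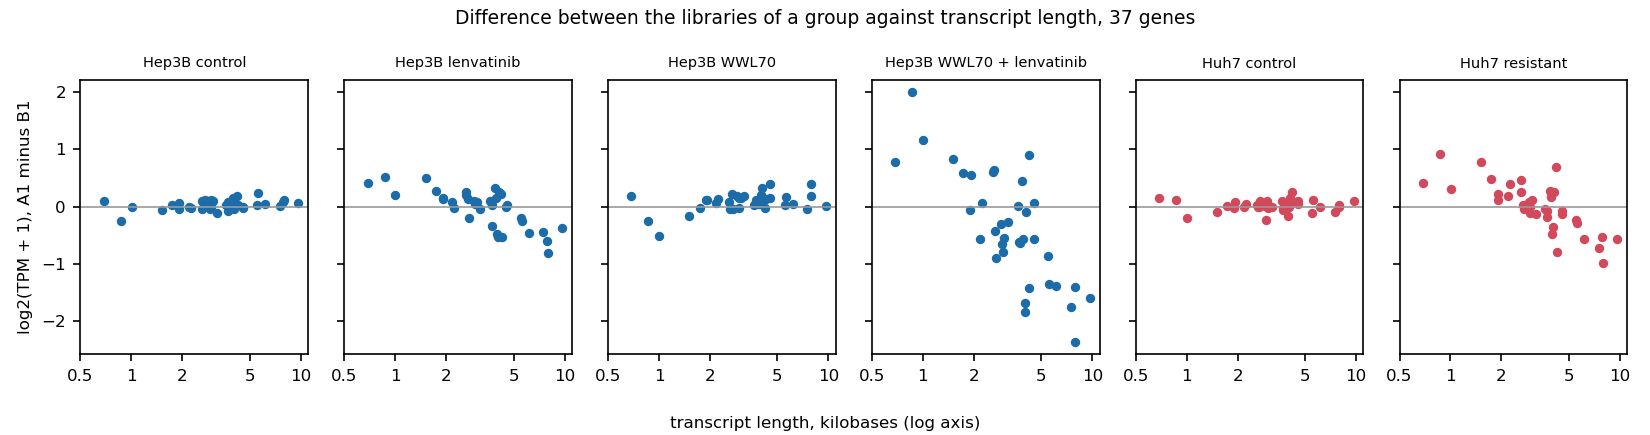
Each point is 1 of 37 genes: the horizontal axis gives transcript length in kilobases on a log scale, the vertical axis the log2(TPM + 1) of library A1 minus that of library B1 in the same group. Points lie near 0 at all lengths in both controls and WWL70, and slope downward in the lenvatinib, combination and resistant groups, most steeply in the combination.

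The promoters of many of these genes carry short elements through which ATF6 and XBP1 act, and the sequences shown here are those of the genes on which the results turn. The ER stress element was first defined from promoters of genes of this kind, so its presence is background and not a result. Searched on both strands from 250 bases before to 50 bases after each RefSeq gene start (GRCh38.p14), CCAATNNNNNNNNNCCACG was found in 7 of the 34 genes that have an entry in the promoter table (20.6%), namely CALR, CANX, CRELD2, HSP90B1, HSPA5, PDIA6 and XBP1. Of all 27305 genes in the promoter table, 0.0916% hold it. The second form, ATTGGNCCACG, was found in HERPUD1, HYOU1 and SDF2L1, and in 0.0696% of all those genes. TGACGTGG, the unfolded protein response element, was found in HYOU1, SSR3, TXNDC5 and TXNDC11, and in 0.927% of all those genes. In HYOU1 it overlaps the more distant ATTGGNCCACG match. The 5-base part CCACG that both ER stress elements share was present in 42.1% of all those genes. A match is a run of letters and is not a measured site.

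Windows of up to 30 bases on either side of a match, all before the RefSeq start and read 5′ to 3′ on the gene's own strand, are printed with the match in capitals. In HSPA5 the match lies 48 to 66 bases before the start (chr9:125241361-125241439, minus strand), in CALR 207 to 225 bases before it (chr19:12938359-12938432, plus strand) and in XBP1 34 to 52 bases before it (chr22:28800573-28800651, minus strand). HERPUD1 holds the second form 107 to 117 bases before its start (chr16:56931995-56932065, plus strand), SDF2L1 178 to 188 bases before its start (chr22:21642084-21642154, plus strand), and HYOU1 holds it at 175 to 185 bases (chr11:119057350-119057420, minus strand) and again at 69 to 79 bases (chr11:119057244-119057314, minus strand). In CALR, SDF2L1 and HYOU1 the capitals are the reverse complement of the searched letters.
HSPA5: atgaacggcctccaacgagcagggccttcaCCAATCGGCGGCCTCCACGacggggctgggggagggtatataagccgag
CALR: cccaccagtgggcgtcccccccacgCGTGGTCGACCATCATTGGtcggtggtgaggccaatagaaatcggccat
XBP1: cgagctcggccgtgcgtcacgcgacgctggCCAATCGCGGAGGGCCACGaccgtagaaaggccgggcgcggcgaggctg
HERPUD1: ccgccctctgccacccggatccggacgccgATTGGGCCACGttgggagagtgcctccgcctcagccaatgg
SDF2L1: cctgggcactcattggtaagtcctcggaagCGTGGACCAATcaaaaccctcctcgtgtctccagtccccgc
HYOU1, distant match: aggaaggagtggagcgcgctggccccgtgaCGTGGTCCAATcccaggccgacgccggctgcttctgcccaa
HYOU1, near match: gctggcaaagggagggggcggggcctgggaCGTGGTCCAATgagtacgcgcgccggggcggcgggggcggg

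HSP90B1 carries the first form as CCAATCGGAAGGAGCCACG, 176 to 194 bases before its start (chr12:103930216-103930234, plus strand), and again as its reverse complement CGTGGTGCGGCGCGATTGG, 71 to 89 bases before it (chr12:103930321-103930339). PDIA6 has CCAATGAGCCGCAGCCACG at chr2:10812853-10812871 (minus strand), CANX has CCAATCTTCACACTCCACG at chr5:179698778-179698796 (plus strand), and CRELD2 has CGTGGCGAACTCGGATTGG at chr22:49918554-49918572 (plus strand, reverse complement). PDIA3 and SEC24D have no entry in the promoter table.

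In untreated Hep3B the most abundant of the genes were CALR at 1400.2 ± 26.2 TPM (SD, n = 2), PDIA3 at 1165 ± 43.1, P4HB at 1149 ± 27.6, HSP90B1 at 1083 ± 48.2 and HSPA5 at 819 ± 13.1. PDIA3 and P4HB differed by less than the spread of their libraries. ERN1, the gene of the sensor IRE1, was the least abundant of the genes tested at 18.8 ± 0.738 TPM. Together the genes took 1.05% and 1.04% of all TPM in the Hep3B controls and 1.05% and 1.03% in the Huh7 controls. The share was 0.625% and 0.597% with lenvatinib, 1.03% and 0.964% with WWL70, 0.544% and 0.588% with the combination, and 0.811% and 0.765% in the resistant line. Both lenvatinib libraries, both combination libraries and both resistant libraries thus lay below every control library of their line.

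**Figure D2:**
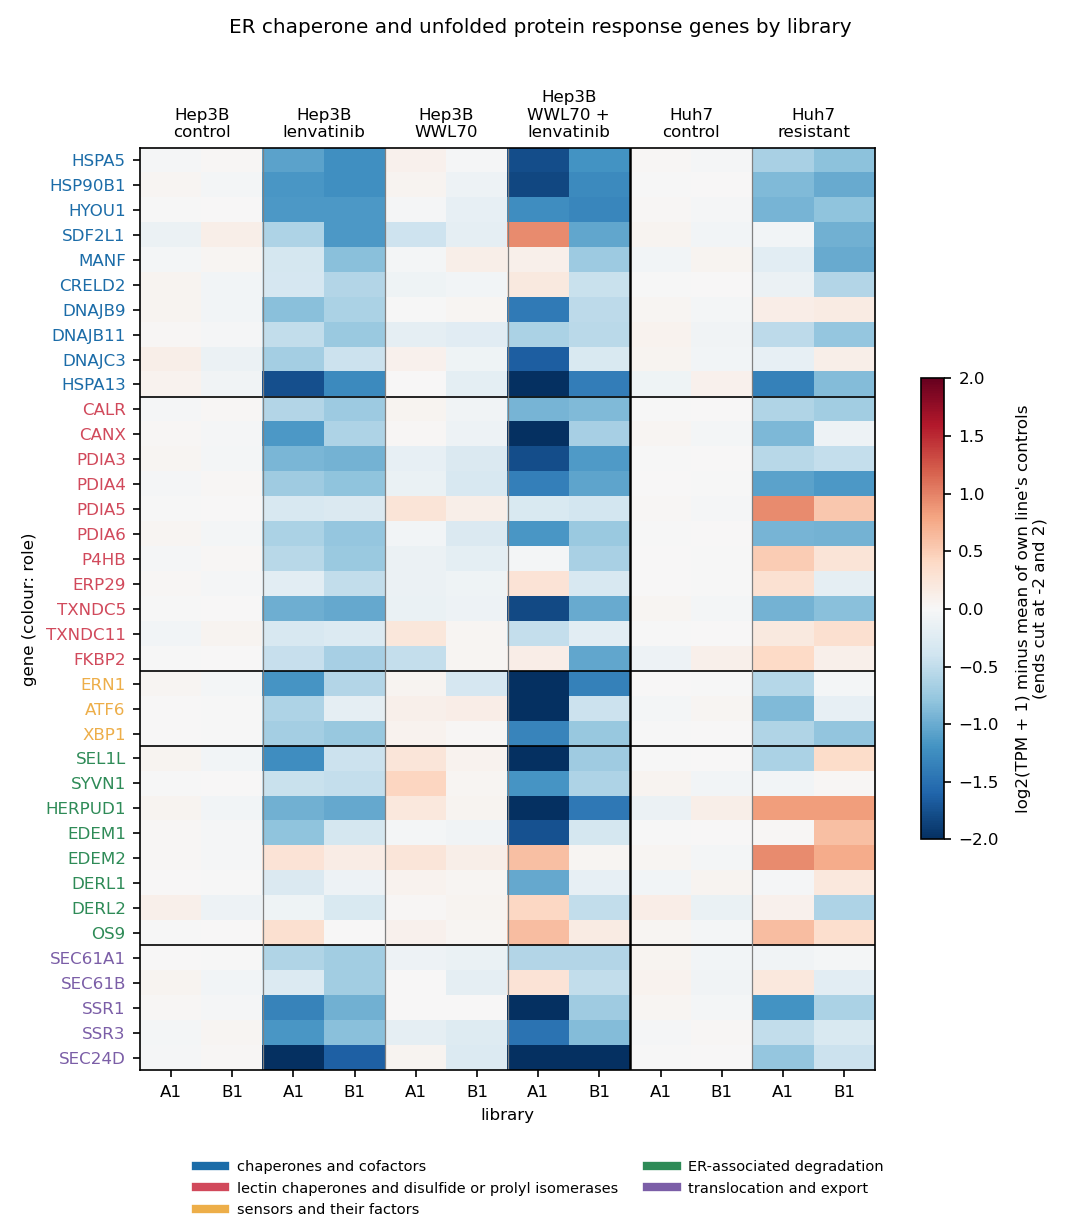
Rows are the 37 tested genes coloured by role, columns the 12 libraries, and colour gives log2(TPM + 1) minus the mean of the same line's controls. Blue fills most of the lenvatinib, combination and resistant columns for chaperones and isomerases, WWL70 stays pale, and HERPUD1, PDIA5 and EDEM2 are red in the resistant line.

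The first comparison asks what lenvatinib alone does to these genes in Hep3B. The central chaperones BiP, GRP94 (HSP90B1) and HYOU1 were 2.22- to 2.29-fold lower than in the controls, the disulfide isomerases PDIA3 and PDIA4 and the lectin chaperone calreticulin were 1.57- to 1.90-fold lower, and the translocation genes SEC61A1 and SSR3 were 1.57- and 1.99-fold lower. In limma's test 8 of the 37 genes fell at a Benjamini-Hochberg adjusted p under 0.05 over all 13645 genes, against 1.1% of all genes called lower, and none rose. Of the 37 log2 fold changes, 35 were negative, with a median of −0.65, against −0.07 over all genes tested. For 34 of the 37 genes both lenvatinib libraries lay below both controls, as did 34.8% of all genes. Because the cultures were sequenced in bulk, fewer expressing cells and less RNA per cell cannot be told apart.

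Among the chaperones and their cofactors, HSPA5 measured 809.7 and 828 TPM in the 2 control libraries and 388 and 350.2 TPM with lenvatinib, a log2 change of −1.15 ± 0.19 (SE, adjusted p = 0.0202 in limma). HSP90B1, the ER member of the HSP90 family, measured 1117 and 1049 TPM in the controls and 484 and 460.1 TPM with the drug (−1.20 ± 0.18, adjusted p = 0.015). HYOU1, a large HSP70-like protein that exchanges the nucleotide of BiP, went from 181 and 184 TPM to 81.4 and 81.5 TPM (−1.15 ± 0.13, adjusted p = 0.00437). In each of the 3 genes the groups were far apart, and A1 and B1 were close together. The other 7 genes of this role had negative log2 changes that missed the threshold, from −1.52 for HSPA13 to −0.46 for CRELD2, a stress-inducible protein with isomerase motifs. SDF2L1, a small partner of the co-chaperone DNAJB11, measured 25.1 and 29.97 TPM in the controls and 17.5 and 11.8 TPM with lenvatinib (−0.88 ± 0.56, adjusted p = 0.595).

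Of the 11 lectin chaperones and isomerases, 3 fell. CALR, encoding the sugar-binding chaperone calreticulin, measured 1382 and 1419 TPM in the controls and 936 and 847 TPM with lenvatinib (−0.65 ± 0.13, adjusted p = 0.036 in limma). PDIA3, the isomerase that works with calreticulin on glycoproteins, measured 1195 and 1134 TPM against 619.9 and 606 TPM (−0.92 ± 0.19, adjusted p = 0.0454). PDIA4, an isomerase with several thioredoxin-like domains, measured 352 and 361 TPM against 218 and 204 TPM (−0.75 ± 0.15, adjusted p = 0.0355). Both lenvatinib libraries lay below both controls for all 11 genes of the role, as did 34.8% of all genes. TXNDC5 and PDIA6 had changes of −1.01 and −0.71 with adjusted p of 0.0602 and 0.0715. CANX, the membrane-bound relative of calreticulin, had −0.88 ± 0.42, with 246 TPM in A1 and 354 TPM in B1 of the lenvatinib group.

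None of the 3 sensor genes was called, where 1.1% of all genes were called lower, so a count of 0 lies near that share. XBP1 was at 399 TPM in both controls and at 249.7 and 236 TPM with lenvatinib (−0.71 ± 0.18, adjusted p = 0.0984 in limma). ERN1 measured 19.3 and 18.3 TPM against 7.73 and 12.2 TPM (−0.88 ± 0.43, adjusted p = 0.443), and ATF6 75.2 and 74.7 TPM against 48.5 and 66.1 TPM (−0.40 ± 0.49, adjusted p = 0.824). For all 3 both lenvatinib libraries lay below both controls, as did 34.8% of all genes. The drug-treated libraries of ERN1 and ATF6 were themselves far apart.

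Of the 8 degradation genes tested, none was called, which in so short a list lies near the 1.1% of all genes called lower. HERPUD1, an ER membrane protein that organises the degradation complex, came closest with 109 and 101 TPM in the controls and 53.5 and 50.8 TPM with lenvatinib (−0.99 ± 0.22, adjusted p = 0.0523). The remaining changes ran from −0.84 for SEL1L, the adaptor of the ubiquitin ligase SYVN1, to 0.21 for EDEM2, which starts the trimming of mannose from misfolded glycoproteins. EDEM2 and the lectin OS9 were the only 2 genes of the 37 with positive changes, neither of which passed the test.

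In translocation and export, SEC61A1, the pore through which nascent chains enter the ER, fell from 311 and 305 TPM to 202 and 189.7 TPM (−0.65 ± 0.12, adjusted p = 0.029 in limma). SSR3, a subunit of the translocon-associated complex, fell from 183 and 192 TPM to 83.3 and 105 TPM (−0.99 ± 0.21, adjusted p = 0.0482). SEC24D, a COPII coat protein that selects cargo leaving the ER, had the largest change of the 37, from 74.3 and 76.8 TPM to 16.2 and 23.8 TPM. Its error, pooled over the libraries of all groups, was wide (−1.89 ± 0.46, adjusted p = 0.0787 in limma).

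The lenvatinib calls rest on few libraries: leaving out either control or either lenvatinib library left 0 of the 37 genes called, as did a fit on Hep3B alone, while the median change stayed between −0.70 and −0.64. Leaving out 1 library of another group left 2 or 3 called, or 19 where it was a combination library, when 12.1% of all genes were called. Rescaling without the 50 most abundant and the mitochondrial genes left 4 called.

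**Figure D3:**
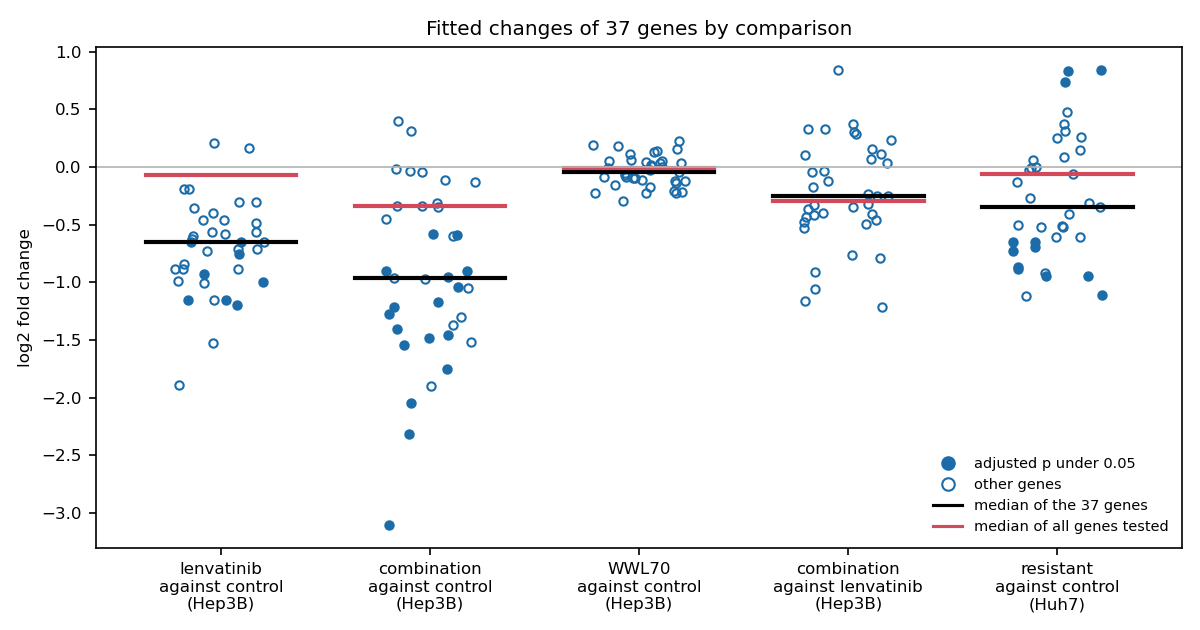
Each circle is the fitted log2 fold change of 1 of 37 genes in the comparison named below it, filled where the adjusted p was under 0.05; black bars give the median of these genes and red bars the median of all 13645 genes tested. The black bar lies well below the red one for lenvatinib, the combination and the resistant line, and the bars almost coincide for WWL70 and for the combination against lenvatinib.

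WWL70 alone asks whether the ABHD6 inhibitor moves these genes without lenvatinib. HSPA5 measured 869 and 809 TPM with WWL70, HSP90B1 1118 and 1009 TPM, HERPUD1 121 and 109 TPM, and XBP1 421 and 405 TPM. The first pair overlapped the control values given earlier, and the second lay just above them. In limma's test 0 of the 37 genes were called, as were 0.0147% of all genes, and 0 of the 37 had an unadjusted p under 0.05, against 2.87% of all genes. Log2 changes ran from −0.29 to 0.23 with a median of −0.04 and a median standard error of 0.22. Both WWL70 libraries lay below both controls for 12 of the 37 genes, against 26.3% of all genes, and above both for 9, against 21.6% of all genes. SDF2L1 had −0.29 ± 0.56, ERN1 −0.14 ± 0.43 and ATF6 0.12 ± 0.49, none of them called. These errors pool the spread of all 12 libraries, including the combination pair, and do not measure the WWL70 and control libraries alone. For ATF6 the WWL70 libraries lay 0.098 (A1) and 0.136 (B1) above the control mean. For HSPA5 the change was 0.03 ± 0.19, where lenvatinib had given −1.15.

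The combination of WWL70 and lenvatinib was set against the same 2 control libraries, so its result is not independent of the lenvatinib result. Under it BiP, GRP94 and PDIA3 were 2.74- to 2.91-fold lower than in the controls, HERPUD1 was 3.37-fold lower, and XBP1 and ERN1 were 2.05- and 4.14-fold lower. In limma's test 17 of the 37 genes fell, against 6.41% of all genes called lower, and none rose. The median log2 change was −0.96, against −0.34 over all genes tested. Both combination libraries were below both controls for 28 of the 37 genes, against 40.5% of all genes.

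HSPA5 measured 239.7 TPM in A1 and 357 TPM in B1 of the combination (−1.48 ± 0.19, adjusted p = 0.00301 in limma), HSP90B1 306 and 449 TPM (−1.54 ± 0.18, adjusted p = 0.00221) and HYOU1 76.5 and 72.9 TPM (−1.28 ± 0.13, adjusted p = 0.00109). DNAJB11, the co-chaperone that brings clients to BiP, and HSPA13, an HSP70-like ATPase, also fell, by 0.59 and 2.31 on the log2 scale. In contrast to its neighbours, the short transcript SDF2L1 stood at 53.9 TPM in A1, above both controls, and at 12.8 TPM in B1, below both (−0.05 ± 0.56, adjusted p = 0.972). MANF, a secreted protein that binds BiP, was likewise split, with 60.2 TPM in A1 and 33.6 TPM in B1.

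Of the isomerases and lectin chaperones 5 fell. PDIA4 measured 137 and 170.4 TPM (−1.22 ± 0.15, adjusted p = 0.00249 in limma), PDIA3 340.1 and 531 TPM (−1.45 ± 0.19, adjusted p = 0.00359) and CALR 733 and 762 TPM (−0.90 ± 0.13, adjusted p = 0.00462), with TXNDC5 and PDIA6 at −1.41 and −0.96. Both combination libraries lay below both controls for these 5 genes, as they did for 40.5% of all genes. The 5 are grouped here as called lower, so this separation adds no support. P4HB, the most studied disulfide isomerase, showed 1114 TPM in A1 and 733 TPM in B1 (−0.35 ± 0.20, adjusted p = 0.242).

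XBP1 fell to 159 and 236 TPM (−1.04 ± 0.18, adjusted p = 0.0122 in limma) and ERN1 to 1.95 and 6.77 TPM (−2.05 ± 0.43, adjusted p = 0.0242). ATF6 measured 15.7 and 55.7 TPM and was not called (−1.30 ± 0.49, adjusted p = 0.117). HERPUD1 fell to 24.0 and 38.3 TPM (−1.75 ± 0.22, adjusted p = 0.00265), and SYVN1, the ubiquitin ligase of the degradation complex, to 28.1 and 42.0 TPM (−0.90 ± 0.22, adjusted p = 0.0371). For each of these 5 genes the A1 library was the lower one. SEC24D fell to 3.98 and 14.99 TPM (−3.10 ± 0.46, adjusted p = 0.0057), SSR3 to 66.9 and 103 TPM (−1.17 ± 0.21, adjusted p = 0.0136), and SEC61A1 measured 205 TPM in both libraries (−0.58 ± 0.12, adjusted p = 0.0224).

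Library A1 of the combination lay further from the controls than B1. Its 37 genes had a median of −1.24 against the controls, and those of B1 alone −0.71, close to the −0.70 of lenvatinib B1. All genes shifted too, with a median of −0.58 in A1 and −0.08 in B1, so the further shift was not particular to these 37. In A1 28 of the 37 genes were below the control mean, and in B1 35. Scaling to the median ratio, which moves the median of all genes in the combination from −0.34 to 0, left 11 called and a median of −0.55, and with libraries weighted by their spread 4 were called. Leaving out either control left 6 called, and leaving out B1 of the combination gave 29, 3 of them higher, in a fit that called 63.6% of all genes.

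The combination was also set against lenvatinib alone, although the labels do not say that the lenvatinib dose was the same, so a difference in dose and the addition of WWL70 cannot be told apart. In limma's test 0 of the 37 genes were called, as were 0.022% of all genes. HERPUD1, PDIA4, PDIA3, ERN1 and SEC24D had an unadjusted p under 0.05, all of them lower with the combination, at log2 changes of −0.76 ± 0.22, −0.46 ± 0.15, −0.53 ± 0.19, −1.17 ± 0.43 and −1.21 ± 0.46 and adjusted p of 0.331 to 0.42. These 5 of 37 genes stand against 9.93% of all genes that were lower at an unadjusted p under 0.05. The median of the 37 genes was −0.25 and that of all genes −0.29. Both combination libraries were below both lenvatinib libraries for 9 of the 37 genes, against 23.4% of all genes. HSPA5 (−0.33 ± 0.19) and XBP1 (−0.32 ± 0.18) each had an adjusted p of 0.466, HSP90B1 (−0.35 ± 0.18) of 0.459, ATF6 (−0.91 ± 0.49) of 0.461 and SDF2L1 (0.84 ± 0.56) of 0.479. Without A1 of the combination the median of the 37 genes was −0.03, and without B1 it was −0.61 with 28 genes called, 21 lower and 7 higher, in a fit that called 57.4% of all genes. With median-ratio scaling the median turned to 0.08.

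**Figure D4:**
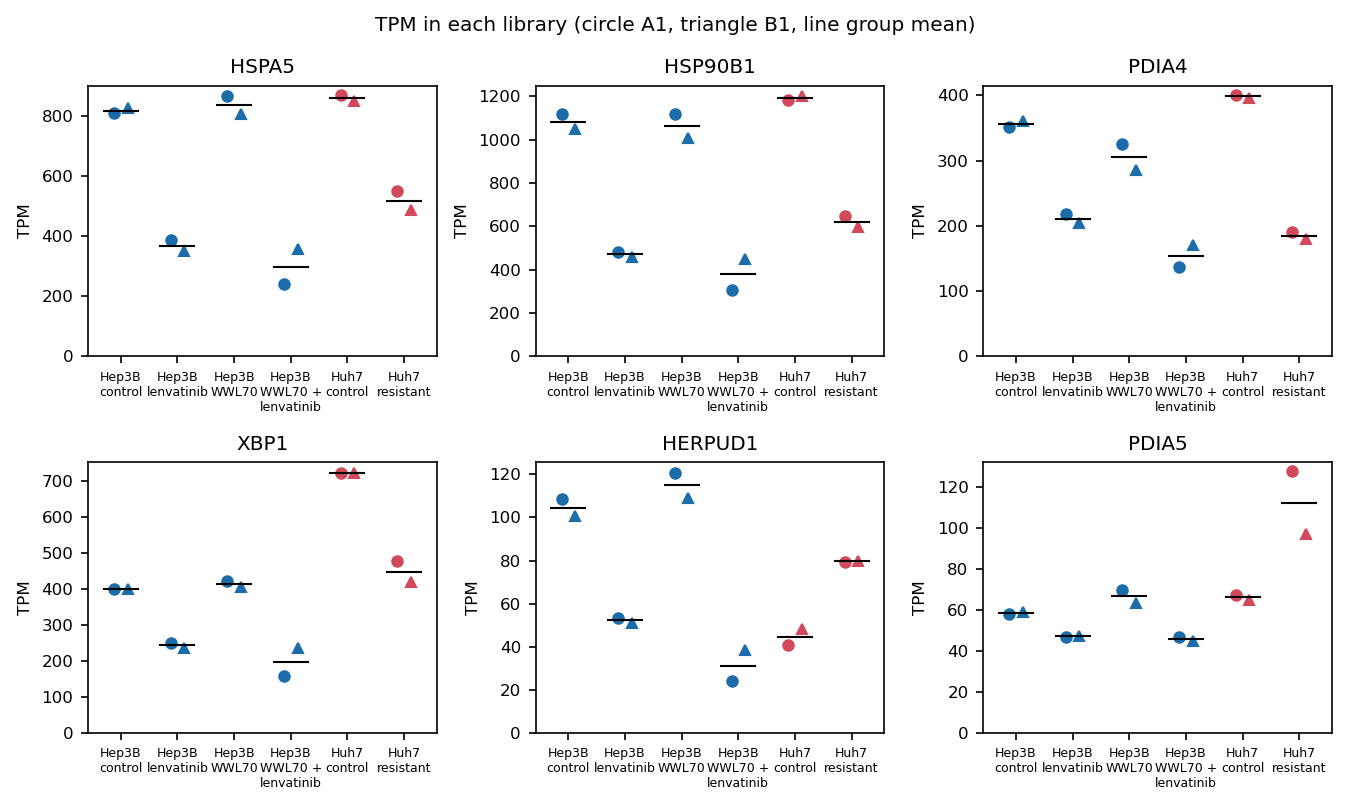
The vertical axis gives TPM from 0 for 6 genes, the horizontal axis the 6 groups; circles are library A1, triangles B1 and bars the mean of 2 libraries, blue for Hep3B and red for Huh7. HSPA5, HSP90B1, PDIA4 and XBP1 lie lower with lenvatinib, with the combination and in the resistant line, whereas HERPUD1 and PDIA5 lie higher in the resistant line than in its control.

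The resistant Huh7 line was compared with its own control, a comparison that shares no library with the Hep3B ones. BiP, GRP94, HYOU1, calreticulin, PDIA4, PDIA6 and XBP1 were 1.57- to 2.15-fold lower in the resistant line, while HERPUD1, PDIA5 and EDEM2 were 1.67- to 1.79-fold higher. In limma's test 9 of the 37 genes fell, against 6.63% of all genes called lower, and 3 rose, against 12.3% called higher. The median log2 change was −0.35, against −0.06 over all genes tested. Both resistant libraries lay below both controls for 19 of the 37 genes, against 36.7% of all genes.

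HYOU1 measured 215 and 207 TPM in the Huh7 controls and 110.3 and 121 TPM in the resistant line (−0.87 ± 0.13, adjusted p = 0.002 in limma), HSP90B1 1182 and 1203 against 645 and 596 TPM (−0.94 ± 0.18, adjusted p = 0.00697), and DNAJB11 211 and 191 against 139 and 117 TPM (−0.65 ± 0.15, adjusted p = 0.0166). HSPA5 measured 869 and 851 TPM in the controls and 550.2 and 488 TPM in the resistant line (−0.73 ± 0.19, adjusted p = 0.0262). Both resistant libraries lay below both controls for these 4 genes, as they did for 36.7% of all genes. The 4 are grouped here as called lower, so this separation adds no support. DNAJB9, a co-chaperone that returns IRE1 to its BiP-bound state, measured 46.4 and 47.6 TPM against 43.7 and 41.0 TPM in the controls (0.15 ± 0.27, adjusted p = 0.763). SDF2L1 measured 28.8 TPM in A1 and 14.7 TPM in B1 against 31.0 and 28.6 TPM (−0.51 ± 0.56, adjusted p = 0.596).

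Among isomerases and lectin chaperones, PDIA4 fell from 401 and 396 TPM to 189.9 and 179.8 TPM (−1.11 ± 0.15, adjusted p = 0.000921 in limma), the smallest adjusted p of the 37 genes in this comparison. PDIA6, an isomerase that also acts on IRE1, fell from 339 and 341 TPM to 178 and 175 TPM (−0.94 ± 0.17, adjusted p = 0.00446), and CALR from 1665 and 1686 TPM to 1109 and 1029.8 TPM (−0.65 ± 0.13, adjusted p = 0.00785). TXNDC5 fell too (−0.89 ± 0.23, adjusted p = 0.0258). Against these, PDIA5, an isomerase reported to act on the disulfide bonds of ATF6, rose from 67.5 and 65.0 TPM to 128 and 97.0 TPM (0.74 ± 0.17, adjusted p = 0.0147), and its lowest resistant library was above both controls. P4HB measured 1055 and 1038 TPM against 1480.0 and 1247 TPM and was not called (0.38 ± 0.20, adjusted p = 0.243).

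XBP1 was at 723 TPM in both Huh7 controls and fell to 477 and 418 TPM (−0.69 ± 0.18, adjusted p = 0.0294 in limma). ERN1 (4.50 and 4.39 against 2.65 and 4.29 TPM) and ATF6 (27.5 and 29.4 against 14.9 and 25.4 TPM) were not called, with adjusted p of 0.682 and 0.518. Of the 8 degradation genes tested, 0 were called lower, against 6.63% of all genes, and 2 (25.0%) were called higher, against 12.3%. HERPUD1 rose from 40.6 and 48.1 TPM to 79.4 and 79.8 TPM (0.83 ± 0.22, adjusted p = 0.0271), and EDEM2 from 33.3 and 31.4 TPM to 63.4 and 54.6 TPM (0.84 ± 0.21, adjusted p = 0.0234). OS9, which hands misfolded glycoproteins to SEL1L, measured 205 and 195 against 307 and 253 TPM and missed the threshold (0.48 ± 0.19, adjusted p = 0.119). None of the 5 translocation and export genes was called, SEC61A1 being at 331 and 309 TPM in the controls and 303 and 312 TPM in the resistant line. Without Huh7 control A1 the median log2 change of the genes described here was −0.351, against −0.0635 over all genes. Without control B1 it was −0.374, against −0.0585. Without A1 of the resistant line it was −0.205, against −0.000845, and without its B1 −0.214, against −0.117. Each of these fits leaves 1 library in a group, so its count of called genes cannot be weighed. Fewer genes were called, and fewer of them higher, without any single Huh7 library. Without either combination library 19 were called, 5 of them higher, with 39.8% or 39.9% of all genes called. In the 12 fits that left out 1 library, PDIA4, PDIA6 and HYOU1 were called each time, and XBP1 in only 2. HSPA5 and HERPUD1 were called in 6 of these fits, TXNDC5 and EDEM2 in 8, and HSP90B1, CALR, DNAJB11 and PDIA5 in 9.

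**Figure D5:**
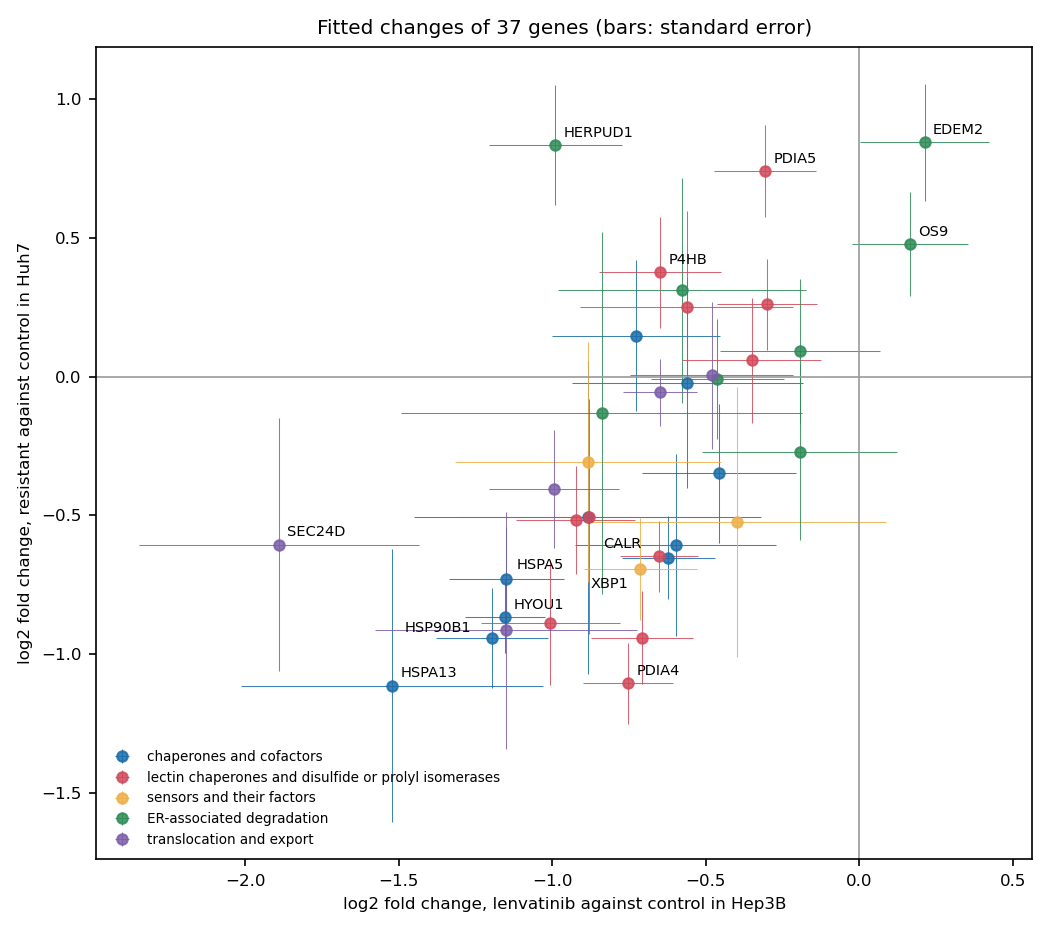
Each point is 1 of 37 genes, coloured by role, with its log2 fold change in lenvatinib-treated against control Hep3B on the horizontal axis and in resistant against control Huh7 on the vertical axis; bars are standard errors. BiP, GRP94, HYOU1, PDIA4 and CALR lie in the lower left, HERPUD1 and PDIA5 in the upper left, and EDEM2 and OS9 in the upper right.

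Set side by side, 5 genes were called lower in both lines, namely CALR, HSP90B1, HSPA5, HYOU1 and PDIA4, which are 5 of the 8 called with lenvatinib and 5 of the 9 called lower in the resistant line. Over all genes tested, 51 were called lower in both, which are 34.0% of those called lower with lenvatinib and 5.64% of those called lower in the resistant line. By sign alone, 25 of the 37 genes were negative in both, as were 39.4% of all genes, 10 were negative with lenvatinib and positive in the resistant line, as were 17.4% of all genes, and EDEM2 and OS9 were positive in both. The difference between the effects was tested in the same fit. It was called for 2 of the 37 genes, HERPUD1 and PDIA5, both higher in the resistance effect, against 5.08% of all genes called higher. HERPUD1 was 1.99-fold lower with lenvatinib in Hep3B and 1.78-fold higher in the resistant Huh7 line, a difference of 1.82 ± 0.31 (adjusted p = 0.00772 in limma), and it was called in each of the 12 fits that left out 1 library. PDIA5 had −0.31 ± 0.17 and 0.74 ± 0.17, a difference of 1.05 ± 0.24 (adjusted p = 0.0321), which held in 3 of those 12 fits. The count of 2 became 8 without either combination library, when 16.4% of all genes were called, and 1 without any other library except B1 of the resistant line. The difference sets drug treatment of one line against a line labelled resistant in the other, so line and kind of exposure cannot be told apart.

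For the 10 genes whose promoters hold either ER stress element, the median log2 change was −0.88 with lenvatinib, −1.16 with the combination and −0.67 in the resistant line. For the 24 genes with a promoter entry and no such match it was −0.59, −0.74 and −0.04. Called lower among the 10 were 4 with lenvatinib, 7 with the combination and 6 in the resistant line. Among the 24 they were 3, 8 and 3. Over all genes 1.1%, 6.41% and 6.63% were called lower in those comparisons. HERPUD1 was the one gene of the 10 that rose in the resistant line, and its ATTGGNCCACG match is of the same form as those of HYOU1, which fell, and of SDF2L1, which was not called. These are descriptions of a set fixed by sequence, with no test.

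The untreated lines were compared for the same genes. XBP1 and DNAJB9 were 1.81- and 1.80-fold higher in Huh7 than in Hep3B, and HERPUD1, ERN1, SYVN1, DNAJB11 and PDIA3 were 1.58- to 3.64-fold lower. These 2 rises and 5 falls are 5.41% and 13.5% of the 37 genes, smaller shares than the 13.3% of all genes called higher and the 21.1% called lower. XBP1 was at 723 TPM in both Huh7 controls and 399 TPM in both Hep3B controls (0.86 ± 0.18, adjusted p = 0.00625 in limma), while ERN1 was at 4.50 and 4.39 TPM against 19.3 and 18.3 TPM (−1.86 ± 0.43, adjusted p = 0.00939). HERPUD1 stood at 40.6 and 48.1 TPM in Huh7 and 109 and 101 TPM in Hep3B (−1.22 ± 0.22, adjusted p = 0.00222), so the 79.4 and 79.8 TPM of the resistant line remained below untreated Hep3B. HSPA5, HSP90B1 and CALR, the most abundant chaperones, differed between the lines by 0.07, 0.14 and 0.26 on the log2 scale, none of them called. Leaving out 1 of the 4 control libraries left 2 to 4 genes called, and leaving out a combination library gave 17 or 18, when 53.9% or 54.0% of all genes were called.

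Other groups of genes give the surroundings of these changes. Over all genes, 1.1% were called lower with lenvatinib, 6.41% with the combination and 6.63% in the resistant line, where 12.3% were called higher. PERK and ATF4 raise a set of stress genes, of which 8 were tested. With lenvatinib 2 fell, the asparagine synthetase ASNS (−1.14 ± 0.19, adjusted p = 0.0208 in limma) and the pseudokinase TRIB3 (−1.31 ± 0.24, adjusted p = 0.0262), and with the combination 4 fell, ASNS and TRIB3 again with CHAC1 and SESN2. In the resistant line 3 rose, PPP1R15A (1.18 ± 0.17, adjusted p = 0.00171), which ends the translational block, SESN2 (0.81 ± 0.17, adjusted p = 0.0102) and the glutathione-degrading enzyme CHAC1 (0.81 ± 0.22, adjusted p = 0.0358), and for those 3 the difference between the effects was called too. All 8 were called lower in untreated Huh7 than in untreated Hep3B, as were 21.1% of all genes.

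Chaperones of other compartments also had mostly negative log2 changes with lenvatinib, with the combination and in the resistant line. The mitochondrial ones had medians of −0.37, −0.43 and −0.52 in these comparisons, against −0.07, −0.34 and −0.06 over all genes tested. The cytosolic ones had −0.11, −0.43 and −0.64, so with lenvatinib and the combination they lay near all genes. With WWL70 the cytosolic median was −0.21, against −0.01 over all genes, and 0 of the 16 were called. Both WWL70 libraries lay below both controls for 12 of them, against 26.3% of all genes. In the resistant line 43.8% of the cytosolic and 33.3% of the mitochondrial genes were called lower. Among the 37 genes 24.3% were, and among all genes 6.63%. With lenvatinib only 1.1% of all genes were called lower, so a count of 0 in a list this short lies near that share. Of 16 cytosolic chaperone genes, 0 were called with lenvatinib or with the combination (0 and 6 at an unadjusted p under 0.05, against 13.4% and 31.9% of all genes), with medians of −0.11 and −0.43, whereas 7 fell in the resistant line, with a median of −0.64, among them CCT5 (−0.89 ± 0.13, adjusted p = 0.0015 in limma) and HSP90AB1 (−0.84 ± 0.16, adjusted p = 0.00729). Of 9 mitochondrial chaperone genes, 0 were called with lenvatinib (4 at an unadjusted p under 0.05), 2 fell with the combination and 3 in the resistant line, led by TRAP1 (−0.95 ± 0.14, adjusted p = 0.00171) and HSPD1 (−1.15 ± 0.18, adjusted p = 0.00224).

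Within the secretory pathway, 2 of 15 glycosylation genes fell with lenvatinib, the oligosaccharyltransferase subunits RPN2 (−0.67 ± 0.13, adjusted p = 0.0355 in limma) and OSTC (−0.91 ± 0.19, adjusted p = 0.0434), and 6 fell with the combination. None of the 14 genes of COPII coats and cargo receptors was called with lenvatinib (6 at an unadjusted p under 0.05), 4 fell with the combination, and 1, the KDEL receptor KDELR3, fell there and rose in the resistant line (0.81 ± 0.20, adjusted p = 0.0245). Of 13 further redox and folding genes 0, 3 and 0 were called with lenvatinib, with the combination and in the resistant line, of 14 further degradation genes 0, 1 and 0, of 13 further translocon and signal peptidase genes 0, 2 and 1, and of 8 further sensors and proteases 0, 1 and 1. The 1 gene of the last list called in the resistant line was CREB3L1, a relative of ATF6, which rose (0.92 ± 0.25, adjusted p = 0.0346). At an unadjusted p under 0.05 these 4 lists had 3, 2, 6 and 1 genes with lenvatinib, against 13.4% of all genes. Called lower were 1.1% of all genes with lenvatinib, 6.41% with the combination and 6.63% in the resistant line, where 12.3% were called higher.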

How the data were processed

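Messenger RNA of 12 libraries was captured on beads, fragmented by heat and read on an Illumina instrument, per the labels' protocols. The submitters' processing notes name fastp 0.18.0 and hg38; the sources used here do not give the aligner, quantifier, annotation or strand setting. The deposited table holds TPM, made by the authors, for 20307 Ensembl identifiers. TPM keeps no depth, so no counting interval was derived, and a fall in TPM is a fall in share.

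Symbols came from a table of gene names or GENCODE 29 (19702 identifiers), and coordinates are on GRCh38, 1-based. For 13645 genes that reached a TPM of 1 in 2 or more libraries, log2(TPM + 1) was fitted with limma 3.58.1 (R 4.3.3, intensity trend, a mean per group over all 12 libraries, no block; 6 residual and 2.91 prior degrees of freedom), and p-values were adjusted over all genes. This scale understates changes of low genes. The spread of a gene is shared by all groups, so its SE is the same in every comparison of 2 groups. The labels do not call A1 and B1 separate cultures, so p-values measure only the spread between these samples. An exact permutation of 2 against 2 libraries cannot go below p = 0.333 and was not used. The code was tested on simulated data.

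The genes, lists and roles were chosen with earlier results of these data known. Per role and comparison, up to 3 called genes with the smallest adjusted p and a mean TPM of at least 5 are given in full, and HSPA5, HSP90B1, XBP1, ERN1, ATF6, HERPUD1 and SDF2L1 always; CANX, MANF, P4HB, OS9, DNAJB9, SEC24D and other genes named without a call were chosen after their values were seen. Promoters are from RefSeq (GRCh38.p14; 34 of the 38 genes had an entry). Protein sequences were not analysed here. Alternatives were other pseudocounts and filters, 2 rescalings, a fit within each line, library weights, a replicate block, and leaving out libraries.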

Additional observations from a re-analysis of the deposited data

Results flagged for a closer look

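The change in the resistant Huh7 line differed from the change under lenvatinib in Hep3B for 2 of the 37 genes, by a test of that difference in limma over all genes. Both were higher in the resistance effect, and 2 of 37 is 5.41%, against 5.08% of all genes called higher. For HERPUD1, of the degradation complex, the difference was 1.82 on the log2 scale (adjusted p = 0.00772), from −0.99 with lenvatinib and 0.83 in the resistant line. Both resistant libraries of HERPUD1 were above both Huh7 controls and both lenvatinib libraries below both Hep3B controls. For the isomerase PDIA5 the difference was 1.05 (adjusted p = 0.0321 in limma), from −0.31 and 0.74, with the same separation of libraries. Both genes were picked by a test on these same libraries, so the separation adds no support. Over all genes, 34.8% lay below both controls with lenvatinib, and 4229 of 13645 lay above both in the resistant line. HERPUD1 started from a lower level in untreated Huh7 (44.4 ± 5.33 TPM, SD, n = 2) than in untreated Hep3B (105 ± 5.60 TPM), whereas PDIA5 started at 66.3 ± 1.76 and 58.4 ± 0.534 TPM. The parts of cell line, drug exposure and library length pattern in these differences were not tested.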

How the results depend on the processing

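No log2 fold change of a called gene changed sign under any alternative run: of 1032 such values, 789 kept their side of the threshold and 243 lost it. Many of these runs could not change a sign. With a mean per group, the filters, the fit within each line and the block leave a fold change as it was. The weights, equal for A1 and B1 of each group, and leaving out a library of another group do so too. Only the other runs bear on the sign. The numbers of the 37 genes called depended much more on the processing; the cause was not tested unless named. With lenvatinib 8 were called, 4 after rescaling without the 50 most abundant and mitochondrial genes, 0 within Hep3B alone and 25 with library weights. For the combination 17 became 11 with median-ratio scaling, 9 within Hep3B and 4 with weights. The difference between the effects gave 2, then 1 with median-ratio scaling and 6 with weights, and the untreated lines gave 7, then 22 with weights. With weights 16.5% of all genes were called for lenvatinib, 0.41% for the combination, 14.5% for the difference and 69.4% for the untreated lines. Leaving out 1 library at a time gave 0 to 19 for lenvatinib, 6 to 29 for the combination, 0 to 28 for the combination against lenvatinib, 3 to 19 for the resistant line, 1 to 8 for the difference and 2 to 18 for the untreated lines; WWL70 stayed at 0.

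Alternatives added after seeing the data left out both combination libraries (19 for lenvatinib, 19 for the resistant line, 8 for the difference, 18 for the untreated lines) or the A1 libraries of the lenvatinib, combination and resistant groups (26 for lenvatinib, 32 for the combination, 27 for the resistant line, 17 for the difference, 24 for the untreated lines). The latter fit called 20.4%, 26.5%, 47.0%, 23.9% and 70.1% of all genes in those 5 comparisons, and the former 12.1%, 39.9%, 16.5% and 54.0% in its 4.

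With the replicate letter as a replicate block, 7 genes were called for lenvatinib, 19 for the combination, 12 for the resistant line, 3 for the difference, 10 for the untreated lines, and 0 for WWL70 and for the combination against lenvatinib. The letters did not pair all groups: the differences between A1 and B1 correlated at 0.616 to 0.739 among the lenvatinib, combination and resistant groups and at −0.124 to 0.0671 in the other pairs of groups. Depth is unknown, which limits what can be said of the least abundant genes.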
